A study of Mus musculus with 6 samples.

Results

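Cell cycle and proliferation genes were followed in liver RNA of Trim24 knockout mice (3 libraries, Trim24 -/-, KO1 to KO3) and wild type mice (3 libraries, WT1 to WT3), all aged 8 weeks and of the C57BL6/J strain. The 36 members were picked by gene symbol from a list, and all 36 were found among the 23284 genes counted. Trim24 encodes a nuclear receptor cofactor of the TIF1 family, and by its title the series concerns hepatic lipid and liver tumours in mice that lack it. How the allele was made, and whether each library is a mouse of its own, is not in the labels, so the spread behind the p-values may be technical. Values of a genotype are listed in the order of replicate number.

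The cell cycle is driven by cyclins that bind and activate cyclin-dependent kinases. D-type cyclins with Cdk4 and Cdk6 start G1 by phosphorylating the retinoblastoma protein, which frees E2F factors to switch on the genes of DNA replication, and A- and B-type cyclins with Cdk1 drive mitosis. Most hepatocytes of an adult liver rest outside the cycle and re-enter it after injury or loss of tissue. The members were ordered by role into 12 genes of G1 and its exit, 10 genes of DNA synthesis (S) and 14 genes of G2 and mitosis (G2/M).

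Mitotic genes share a short promoter element, the cell cycle genes homology region (CHR), which together with CCAAT boxes is bound by complexes that repress these genes in resting cells and activate them in G2, whereas replication genes tend to carry E2F sites. Promoter windows of 300 bases, from 250 bases before to 50 after the start, were read from RefSeq on GRCm38.p6 for 28 of the 36 members and searched on both strands. A CHR (TTTGAA or TTTAAA) was present in 10 of 11 G2/M genes, 3 of 9 S genes and 2 of 8 G1 genes, and in 27.5% of all 32544 windows. A CCAAT box (CCAAT) was present in 10 of 11 G2/M, 8 of 9 S and 4 of 8 G1 genes, and in 37.4% of all windows. An E2F word (TTTCCCGC, TTTCGCGC, TTTGCCGC or TTTGGCGC) was present in 1 of 11 G2/M, 4 of 9 S and 1 of 8 G1 genes, and in 2.28% of all windows. Such matches describe the letters in the window and show no binding. The windows of Mki67 and Top2a, the G2/M genes that rose, and of Mcm5, the S gene with the most uneven counts between libraries, are printed 5′ to 3′ with CHR, CCAAT and E2F letters in capitals. Mki67 lies on the minus strand (chr7:135716330-135716629), Top2a on the minus strand (chr11:99024140-99024439) and Mcm5 on the plus strand (chr8:75109259-75109558). In Mcm5 the E2F words on opposite strands overlap in 1 run of capitals.
Mki67: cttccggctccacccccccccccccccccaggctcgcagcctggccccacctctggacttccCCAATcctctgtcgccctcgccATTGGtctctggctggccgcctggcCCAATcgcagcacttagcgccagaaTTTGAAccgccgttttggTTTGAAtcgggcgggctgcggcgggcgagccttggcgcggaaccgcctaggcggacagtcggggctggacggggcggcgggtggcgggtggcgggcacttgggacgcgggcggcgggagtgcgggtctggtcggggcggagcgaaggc
Top2a: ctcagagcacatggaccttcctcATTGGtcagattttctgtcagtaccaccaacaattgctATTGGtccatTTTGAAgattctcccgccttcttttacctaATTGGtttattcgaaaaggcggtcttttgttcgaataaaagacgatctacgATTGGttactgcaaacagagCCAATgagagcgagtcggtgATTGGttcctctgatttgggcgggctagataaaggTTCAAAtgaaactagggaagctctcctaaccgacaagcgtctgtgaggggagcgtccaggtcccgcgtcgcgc
Mcm5: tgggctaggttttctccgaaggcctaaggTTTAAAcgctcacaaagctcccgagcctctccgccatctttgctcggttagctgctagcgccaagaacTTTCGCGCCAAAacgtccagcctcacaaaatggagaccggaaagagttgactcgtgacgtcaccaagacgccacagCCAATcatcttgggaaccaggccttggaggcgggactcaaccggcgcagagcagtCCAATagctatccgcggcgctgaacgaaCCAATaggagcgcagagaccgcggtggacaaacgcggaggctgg

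Reads in genes were few, which limits what these genes can show. Most counted reads, 93.3% to 95.8%, lay in no gene, and the cause of this was not tested. Reads in genes numbered 1607276, 1754269 and 2872421 in the KO libraries, and 1495583 to 1732309 in the WT libraries, or 4.22% to 6.69% of all counted reads. A count of 0 allows up to 3 counts, which corresponds to 1.04 to 2.10 CPM (counts per 1000000 reads in tested genes, scaled by TMM factors) depending on the library, and covers counting error only. Across genes, which are not independent replicates, Pearson's r between log2 CPM of libraries was 0.957 to 0.965 within a genotype and 0.917 to 0.945 between genotypes. Trim24 checked the labels, with 3, 2 and 2 counts in the KO libraries, against 31, 45 and 44 counts in the WT libraries. KO3, the deepest library, stood apart from all others for the helicase genes Mcm2 to Mcm6, and results that rest on it are given with and without it. Summed CPM of 16 pancreatic acinar markers were 956 and 636 in KO1 and KO3, against 13.6 in KO2 and 12.5 to 39.1 in the WT libraries. The 10 hepatocyte markers were read in every library, with sums of 103556 to 140012 CPM in the KO libraries and 142840 to 156779 CPM in the WT libraries.

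Ccnd1, Mki67 and Top2a rose in the knockout livers and no member fell. With the edgeR quasi-likelihood test (adjusted p under 0.05 over 9180 tested genes), 3 of the 17 members that passed the expression filter were called, or 17.6%, against 5.73% of all tested genes (3.08% higher and 2.65% lower). No member fell in edgeR, DESeq2 or limma-voom. At an unadjusted p under 0.05 in edgeR 5 members were higher and 1, Aurka, was lower, against 1864 of the 9180 tested genes in either direction. Without KO3 only Ccnd1 was called higher, against 2.15% of all genes tested then, and with KO2 as the only KO library again only Ccnd1, against 2.98%. The median log2 fold change of the 17 was 0.04, against 0.01 over all tested genes, with 9 values above 0 and 8 below. The other 19 members had too few counts to be tested and are given as counts. Top2a and Mki67 had fewer than 10 counts in every WT library and passed the filter through their KO counts, a route open only to genes that are higher in KO. Ccnd1 was the only other member called, so the share of members called is not read as an excess over all tested genes.

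**Figure D1:**
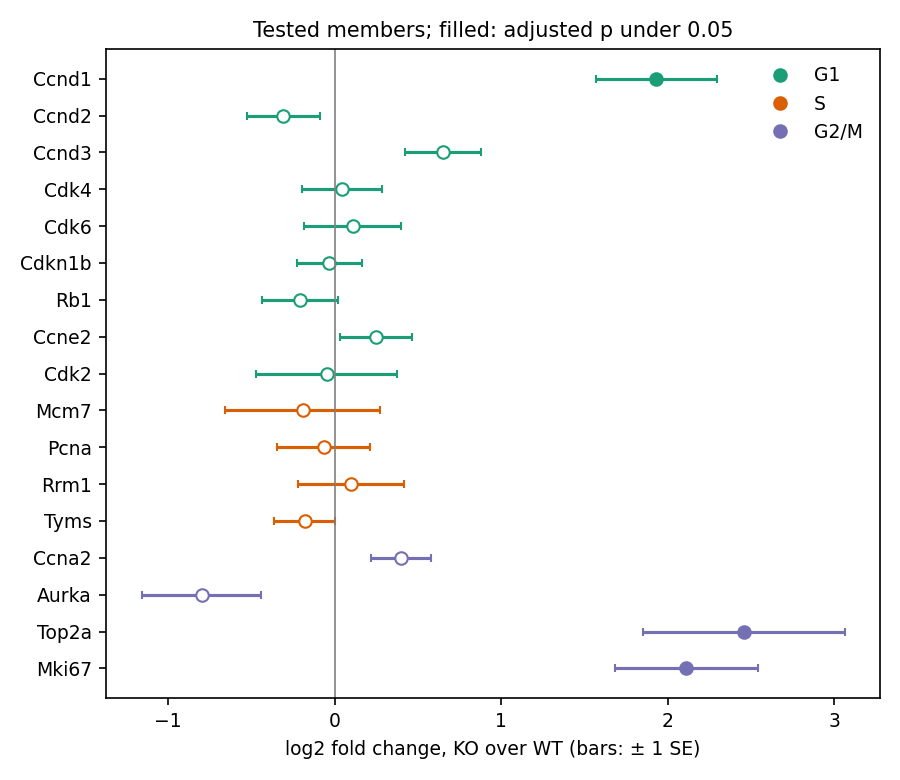
Log2 fold change (KO over WT, horizontal axis) with 1 SE for the 17 tested members, listed from G1 to G2/M and coloured by role, with filled points for adjusted p under 0.05. Ccnd1, Top2a and Mki67 lie at 1.93, 2.46 and 2.11, and the other 14 lie between -0.80 and 0.65.

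Among the G1 genes, Ccnd1, the cyclin D1 gene that links growth signals to Cdk4 and Cdk6, was called. It had 47.7, 60.2 and 114 CPM in the KO libraries, against 21.0, 9.26 and 28.5 CPM in the WT libraries. Every KO library lay above every WT library, with KO3 the highest. The log2 fold change was 1.93 (SE 0.36, adjusted p = 0.0071), it was 1.45 without KO3 (adjusted p = 0.024), and the call held under all 15 alternatives, with adjusted p up to 0.037. In bulk tissue, more cells that express a gene and more RNA per cell cannot be told apart. Of the exon bases of Ccnd1, 1100 (23.4%) are shared with Oraov1 on the opposite strand, and without a stated strand setting the reads of the pair cannot be told apart there. Oraov1 itself had 8, 9 and 15 counts in the KO libraries, against 5, 10 and 4 counts in the WT libraries.

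Neither of the other D-type cyclins was called. Ccnd3 had 24.8, 35.3 and 32.4 CPM in the KO libraries, against 20.3, 22.5 and 16.6 CPM in the WT libraries. The groups did not overlap, but the difference was not called (log2 fold change 0.65, SE 0.23, adjusted p = 0.12). Ccnd2 had 18.6, 21.2 and 18.1 CPM in the KO libraries, against 23.7, 26.5 and 21.4 CPM in the WT libraries, so every KO library lay below every WT library (log2 fold change -0.31, SE 0.22, adjusted p = 0.47). Per kilobase of exon, Ccnd1 averaged 15.7 CPM in KO and 4.16 CPM in WT, Ccnd3 averaged 3.51 CPM in KO and 2.26 CPM in WT, and Ccnd2 averaged 2.05 CPM in KO and 2.54 CPM in WT. By these means Ccnd1 was the most abundant D-type cyclin gene in both genotypes, but in WT2 it lay below both others per kilobase. Differences between these fold changes were not tested. Ccnd1 to Ccnd3 are among 10 members whose exons overlap those of a counted gene on the opposite strand, namely 9330179D12Rik for Ccnd2, Bysl for Ccnd3, Tspan31 for Cdk4, Rcbtb2 and Lpar6 for Rb1, Pmel for Cdk2, Ap4m1 and Cops6 for Mcm7, Elovl1 for Cdc20, and the partners given beside Ccnd1, Ccne2 and Ccna2.

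The partners and brakes of the D-type cyclins were not called. Cdk4, a kinase partner, had 19.2, 15.2 and 21.2 CPM in the KO libraries, against 19.6, 15.2 and 19.6 CPM in the WT libraries. Cdk6, the other kinase partner, had 9.91, 15.7 and 16.4 CPM in the KO libraries, against 16.8, 11.9 and 11.3 CPM in the WT libraries. Both kinase genes overlapped between genotypes, and their log2 changes were 0.04 and 0.11 (SE 0.24 and 0.29). Cdkn1b, which encodes the inhibitor p27, had 27.2, 36.4 and 36.9 CPM in the KO libraries, against 33.5, 35.1 and 35.0 CPM in the WT libraries. Rb1, the retinoblastoma gene, had 20.4, 22.3 and 16.0 CPM in the KO libraries, against 24.4, 21.8 and 20.8 CPM in the WT libraries. These brakes also overlapped between genotypes, with log2 changes of -0.03 and -0.21 (SE 0.19 and 0.23). Ccne2, the cyclin E2 gene of the G1 to S step, had 37.2, 34.2 and 27.1 CPM in the KO libraries, against 32.1, 25.8 and 24.3 CPM in the WT libraries. It shares 609 exon bases (17.4%) with Ints8 on the opposite strand, which had 68.1, 48.8 and 43.5 CPM in the KO libraries, against 39.1, 39.7 and 39.2 CPM in the WT libraries, and the reads of the pair cannot be told apart there. Cdk2, the kinase that cyclin E binds, had 3.10, 8.14 and 10.8 CPM in the KO libraries, against 9.78, 9.26 and 5.34 CPM in the WT libraries. The log2 changes of Ccne2 and Cdk2 were 0.25 and -0.05 (SE 0.21 and 0.42), with overlapping groups.

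3 G1 members had too few counts to be tested. Ccne1, the cyclin E1 gene, had 0, 6 and 14 counts in the KO libraries, against 0, 1 and 0 counts in the WT libraries. The summed ratio per read was 14.6, with a 95% exact counting interval of 2.34 to 606, and KO1 held no read. Without KO3 the ratio was 8.03, with an interval of 0.97 to 369 that includes 1. It was called only when no filter on low counts was used (adjusted p = 0.041). E2f1, an activating E2F factor, had 7, 5 and 4 counts in the KO libraries, against 0, 0 and 4 counts in the WT libraries (ratio 2.92, counting interval 0.94 to 12.02, and 4.02 with 1.22 to 17.1 without KO3). In edgeR with no filter on low counts E2f1 was not called (adjusted p = 0.43). Cdkn2c, which encodes the Cdk4 and Cdk6 inhibitor p18, had 1, 1 and 5 counts in the KO libraries, against 0, 2 and 3 counts in the WT libraries (ratio 1.02, counting interval 0.28 to 4.09, and 0.54 with 0.051 to 3.27 without KO3).

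**Figure D2:**
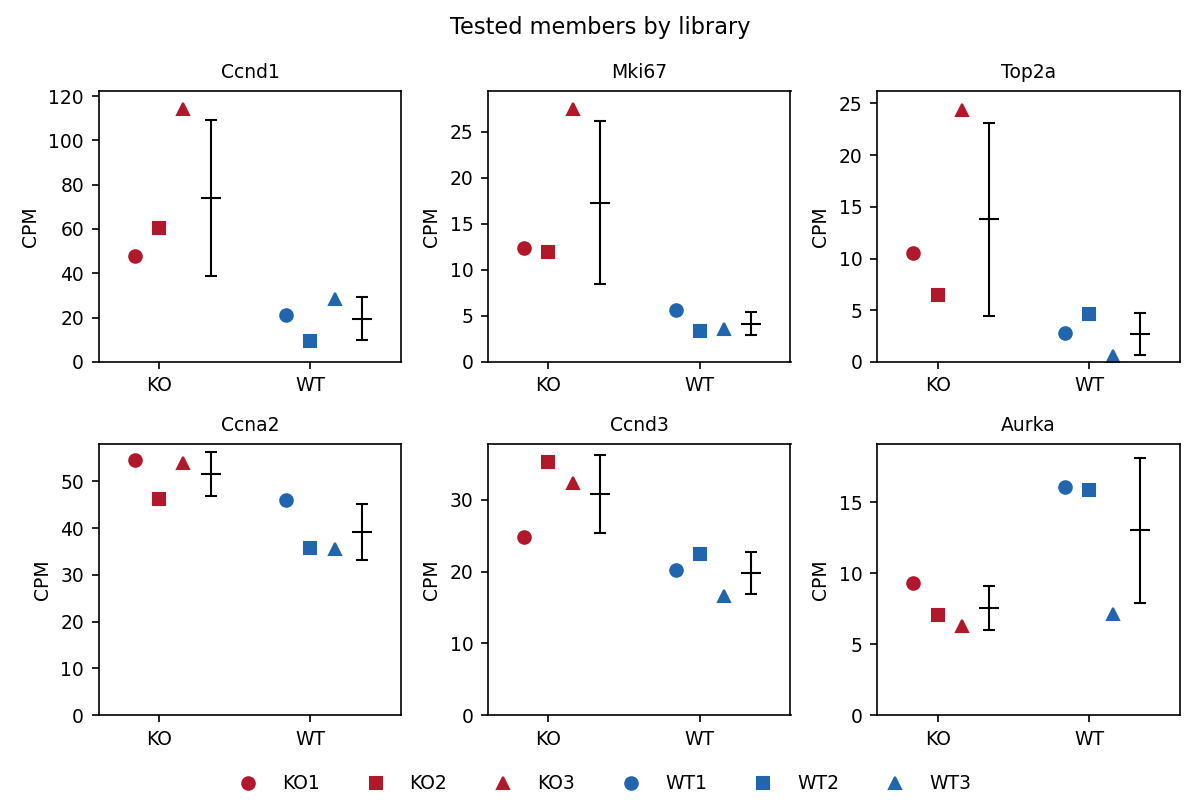
CPM (vertical axes, from 0) of 6 tested members in each library, with KO libraries left of WT libraries and black bars for the mean ± SD of 3 libraries. Ccnd1, Mki67 and Top2a separate the genotypes with KO3 highest, the lowest KO and the highest WT library of Ccna2 are both at 46.1 CPM, and Aurka is lower in KO with overlapping groups.

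The S genes did not rise together, and the replicative helicase separated KO3 from the other 5 libraries. Mcm2 to Mcm7 encode the 6 subunits of the helicase that is loaded at origins in G1. Their summed CPM were 21.7, 19.0 and 72.4 in the KO libraries, against 29.3, 19.8 and 27.9 in the WT libraries. KO1 and KO2 thus lay within or just below the wild type range, and KO3 was 2.82 times the WT mean. The ratio of the KO mean to the WT mean was 1.47 with all libraries and 0.79 without KO3. This sum was formed after the counts had been seen.

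Most single subunits were highest in KO3, which was also the deepest library. Mcm5 had 1, 2 and 37 counts in the KO libraries, against 4, 4 and 4 counts in the WT libraries. Mcm2 had 6, 5 and 37 counts in the KO libraries, against 5, 7 and 6 counts in the WT libraries. Mcm6 had 9, 5 and 35 counts in the KO libraries, against 3, 4 and 8 counts in the WT libraries. Relative to depth, KO3 was again the highest library for each of Mcm2 to Mcm6, with 12.9 CPM of Mcm5, against 0.619 and 1.09 CPM in KO1 and KO2 and 2.38 to 2.79 CPM in the WT libraries. Mcm3 had 2, 6 and 26 counts and Mcm4 had 7, 10 and 33 counts in the KO libraries, against 1, 1 and 8 counts and 7, 5 and 7 counts in the WT libraries. Mcm7, the only tested subunit, had 6.19, 3.80 and 13.9 CPM in the KO libraries, against 15.4, 5.95 and 8.31 CPM in the WT libraries, and was not called (log2 fold change -0.19, SE 0.47).

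The remaining S genes serve nucleotide supply and the replication fork, and none was called. Tyms, which makes thymidylate, had 87.9, 107 and 109 CPM in the KO libraries, against 148, 99.2 and 98.6 CPM in the WT libraries (log2 fold change -0.18, SE 0.18). Pcna, the sliding clamp of the polymerases, had 15.5, 9.77 and 13.2 CPM in the KO libraries, against 14.7, 11.2 and 14.3 CPM in the WT libraries (log2 fold change -0.07, SE 0.28). Rrm1, the large subunit of ribonucleotide reductase, had 11.8, 14.1 and 17.0 CPM in the KO libraries, against 18.2, 7.27 and 15.4 CPM in the WT libraries (log2 fold change 0.10, SE 0.32). Rrm2, its small subunit, had 3, 4 and 19 counts in the KO libraries, against 6, 7 and 16 counts in the WT libraries. KO1 and KO2 were below every WT library for Rrm2 by CPM and KO3 was not. Genotypes overlapped for Tyms, Pcna and Rrm1, and none of the 4 tested S genes had an unadjusted p under 0.05.

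**Figure D3:**
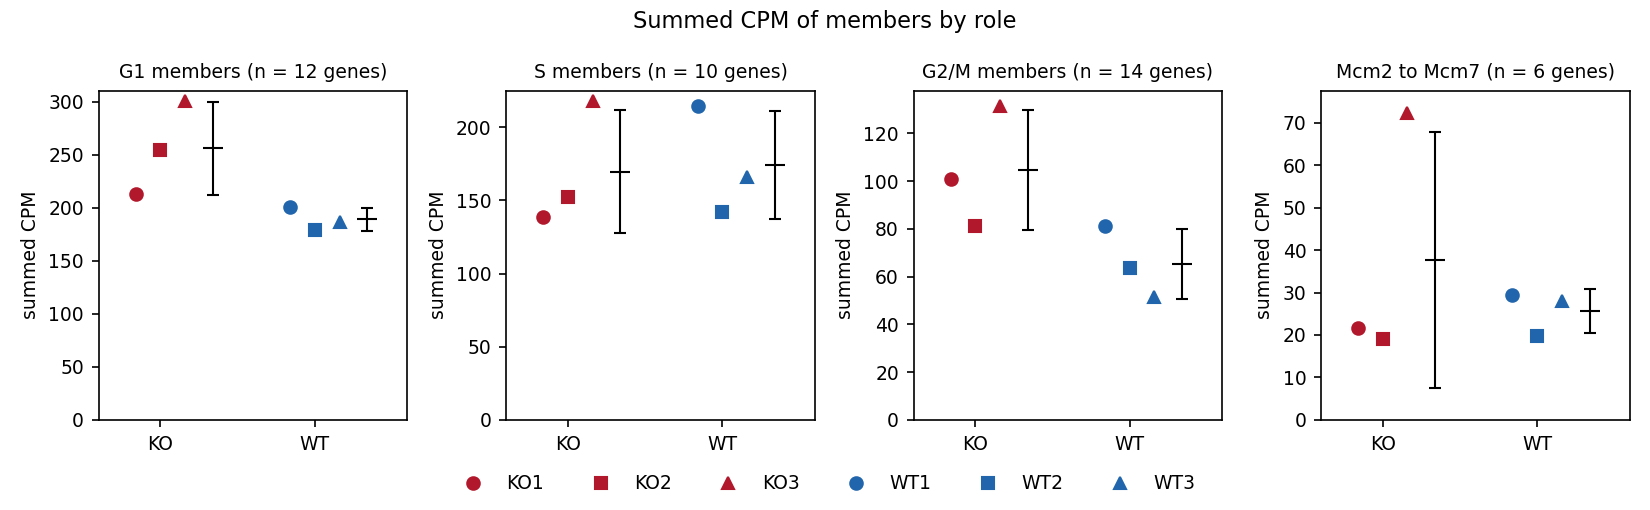
Summed CPM (vertical axes, from 0) of the G1, S and G2/M members and of Mcm2 to Mcm7 in each library, with black bars for the mean ± SD of 3 libraries. The KO and WT libraries overlap for the S sum, and for Mcm2 to Mcm7 KO3 stands at 72.4 CPM while the other 5 libraries lie between 19.0 and 29.3 CPM.

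The G2/M genes held the other calls. Mki67, whose product Ki-67 coats mitotic chromosomes and marks cycling cells, had 12.4, 11.9 and 27.5 CPM in the KO libraries, against 5.59, 3.31 and 3.56 CPM in the WT libraries. All KO libraries lay above all WT libraries (log2 fold change 2.11, SE 0.43, adjusted p = 0.011). Top2a, the topoisomerase that untangles sister chromatids, had 10.5, 6.51 and 24.4 CPM in the KO libraries, against 2.79, 4.63 and 0.594 CPM in the WT libraries. Its groups did not overlap either (log2 fold change 2.46, SE 0.61, adjusted p = 0.031). Both calls ended without KO3, at a log2 fold change of 1.54 for Mki67 (adjusted p = 0.052) and 1.66 for Top2a (adjusted p = 0.15), with KO1 and KO2 still above every WT library. The Mki67 call also ended without WT2 or WT3 (adjusted p = 0.056 and 0.068), and the Top2a call also without WT1, WT2 or WT3 (adjusted p = 0.10, 0.05 and 0.14) and with limma-voom (0.085). Their promoter windows hold 2 CHR each, with 3 CCAAT boxes in Mki67 and 6 in Top2a.

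Ccna2 and Aurka were the other tested G2/M genes. Ccna2, the cyclin A2 gene of S phase and mitotic entry, had 54.5, 46.1 and 53.9 CPM in the KO libraries, against 46.1, 35.7 and 35.6 CPM in the WT libraries. KO2 and WT1, both at 46.1 CPM, were level to 3 digits with KO2 just above, and the difference was not called (log2 fold change 0.40, SE 0.18, adjusted p = 0.23). It shares 510 exon bases with Exosc9 on the opposite strand, which had 12.4, 22.3 and 14.6 CPM in the KO libraries, against 12.6, 8.60 and 10.1 CPM in the WT libraries. Aurka, the spindle pole kinase, had 9.29, 7.06 and 6.26 CPM in the KO libraries, against 16.1, 15.9 and 7.13 CPM in the WT libraries, the opposite direction to Mki67 and Top2a (log2 fold change -0.80, SE 0.36, adjusted p = 0.23).

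Most other mitotic genes were near the limit of detection in both genotypes. Cdk1, the kinase of mitotic entry, had 2, 3 and 3 counts in the KO libraries, against 2, 2 and 3 counts in the WT libraries, so no difference was detectable (ratio 0.84, counting interval 0.26 to 2.71). Ccnb1, the gene of its partner cyclin B1, had 10, 2 and 10 counts in the KO libraries, against 6, 0 and 2 counts in the WT libraries (ratio 2.01, counting interval 0.86 to 5.22). Ccnb2, for cyclin B2, had 2, 1 and 8 counts in the KO libraries, against 0, 1 and 1 counts in the WT libraries (ratio 4.02, counting interval 0.88 to 37.3, and 2.01 with 0.23 to 24.0 without KO3). The intervals of both genes include 1. Birc5, which encodes survivin of the chromosomal passenger complex, had 3, 6 and 13 counts in the KO libraries, against 3, 2 and 1 counts in the WT libraries (ratio 2.68, counting interval 1.05 to 8.08, and 2.01 with 0.64 to 6.85 without KO3). Bub1b, a spindle checkpoint gene, had 3, 1 and 3 counts in the KO libraries and no read in any WT library. The lower limit of its counting interval was a ratio of 1.05 with all libraries and 0.88 without KO3. The kinase genes Plk1, Aurkb and Bub1, the anaphase activator gene Cdc20 and the transcription factor gene Foxm1 had 4 to 8 counts each over the KO libraries, against 1 or 2 over the WT libraries. Over KO1 and KO2 alone, Cdc20 had 0 counts and each of the others had 2. The counting interval of the ratio includes 1 for each of these genes, with and without KO3. The 10 untested G2/M members together had 23, 18 and 56 counts in the KO libraries, against 15, 6 and 8 counts in the WT libraries. In CPM this was 14.2, 9.77 and 19.5 in the KO libraries, against 10.5, 3.97 and 4.75 in the WT libraries, so the genotypes overlapped, with KO2 below WT1. The ratio of means was 2.27 with all libraries and 1.88 without KO3.

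**Figure D4:**
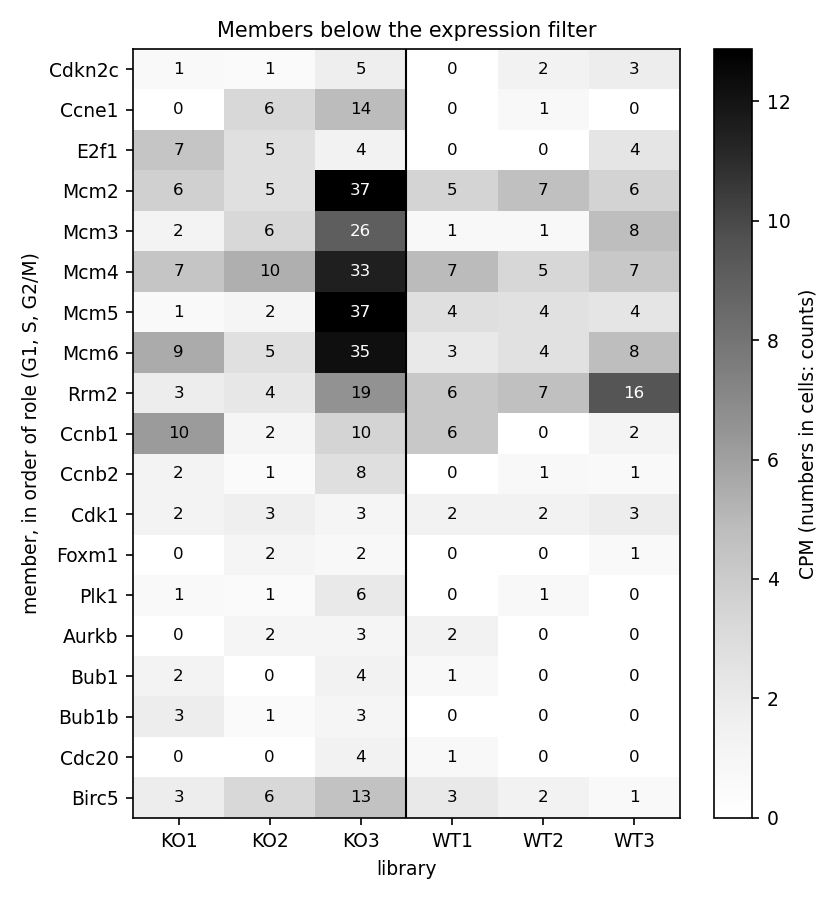
The 19 members below the expression filter, with libraries on the horizontal axis, counts printed in the cells and CPM as the grey scale. Mcm2 to Mcm6 are dark in KO3 alone, with 26 to 37 counts, and most mitotic genes have fewer than 10 counts in every library.

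Summed over all members of a role with no filter, the G1 genes came to 256 ± 44 CPM in KO and 189 ± 11 CPM in WT, the S genes to 170 ± 42 CPM in KO and 174 ± 37 CPM in WT, and the G2/M genes to 105 ± 25 CPM in KO and 65.4 ± 14.8 CPM in WT (SD, n = 3 each). The KO libraries lay above the WT libraries for the G1 and G2/M sums and overlapped them for the S sum. For the G2/M sum KO2, at 81.4 CPM, was nearly level with WT1, at 81.0 CPM. The log2 ratios of KO over WT means were 0.44, -0.04 and 0.68 for G1, S and G2/M, and without KO3 they were 0.31, -0.26 and 0.48. Ccnd1 carried most of the G1 difference, and without it the G1 sum was 182 ± 15 CPM in KO and 170 ± 11 CPM in WT (SD, n = 3 each). The genotypes then overlapped, with 165 CPM in KO1 and 180 CPM in WT1. Ccna2 made up much of the G2/M sum, and without it the sum was 53.1 ± 21.9 CPM in KO and 26.2 ± 9.5 CPM in WT (SD, n = 3 each). KO2 and WT1 were again nearly level, at 35.3 and 34.9 CPM. Since the members were chosen with results known, these sums were given no p-value. Of the 17 tested members, 5 (Ccnd1, Ccnd3, Ccna2, Top2a and Mki67) had every KO library above every WT library, against 12.4% of all tested genes, 1 (Ccnd2) had every KO library below, against 12.6%, and 6 had KO3 as their highest library, against 18.7%. Top2a and Mki67 passed the filter through their KO counts, and Ccna2 was apart only by 46.13 CPM in KO2 against 46.10 CPM in WT1. These counts are therefore not read as an excess.

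Among 118 other genes of the cycle, 46 were tested, 1 rose and 1 fell, or 4.35% called, against 5.73% of all tested genes. Cdkn1a, which encodes the Cdk inhibitor p21 and is a p53 target, had 52.0, 84.1 and 59.8 CPM in the KO libraries, against 8.38, 21.2 and 4.16 CPM in the WT libraries. Every KO library lay well above every WT library (log2 fold change 2.55, SE 0.37, adjusted p = 0.0013), and the call held under all 15 alternatives. An activator of the G1 kinases and an inhibitor of them were thus both higher in the same 3 libraries, and their order differed, with KO3 highest for Ccnd1 and KO2 highest for Cdkn1a. Tfdp2, a dimer partner of E2F factors, fell to 22.3, 23.3 and 20.5 CPM in the KO libraries, against 32.8, 37.7 and 49.9 CPM in the WT libraries (log2 fold change -0.87, SE 0.22, adjusted p = 0.031). That call ended without KO2, KO3, WT2 or WT3 (adjusted p = 0.07 to 0.16) and when library totals alone set the scale (0.054). None of 18 tested replication genes and none of 14 tested mitotic genes was called by edgeR. An unadjusted p under 0.05 was found for 2 of the 18 and 3 of the 14, against 1864 of all 9180 tested genes. DESeq2 and limma-voom each called 1 of these replication and mitotic genes, Mad2l1. The replication origin genes Orc3 and Mcm10, with the highest means in their role, changed by -0.41 and -0.09 on the log2 scale (SE 0.18 and 0.34). The anaphase-promoting complex genes Anapc1 and Anapc5 changed by -0.02 and 0.05 (SE 0.15 and 0.16). Mad2l1, which acts in the spindle checkpoint, had 15.5, 3.80 and 5.57 CPM in the KO libraries, against 27.2, 19.8 and 16.6 CPM in the WT libraries, with adjusted p = 0.035 in DESeq2, 0.032 in limma-voom and 0.057 in edgeR. The E2f4 gene and the retinoblastoma relative Rbl2 changed by 0.73 and -0.31 on the log2 scale (SE 0.30 and 0.21), and neither was called.

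**Figure D5:**
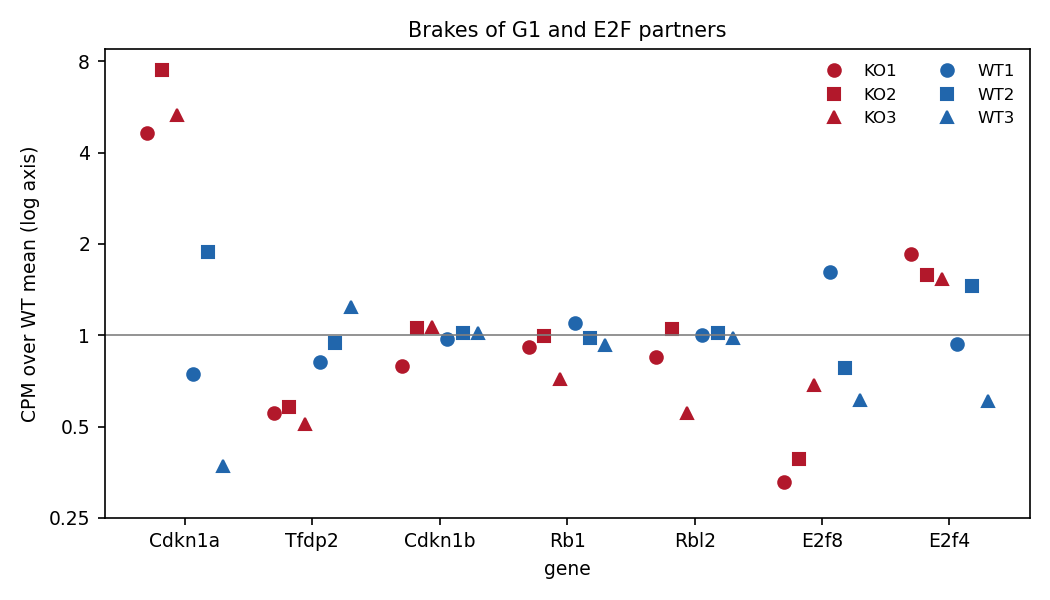
CPM divided by the WT mean of each gene (vertical axis, log scale) for inhibitors of G1 and for E2F factors and partners in each library, with KO points left of WT points. Cdkn1a lies high and Tfdp2 low in all 3 KO libraries, Cdkn1b of the KO libraries lies on both sides of the WT mean, and Rb1 of the KO libraries lies below it with overlapping groups.

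Among markers of other cells, the lymphocyte and stellate cell sums separated the genotypes. The Kupffer cell, endothelial, cholangiocyte, erythroid and acinar sums overlapped between genotypes. Called counts of markers stand against 3.08% higher and 2.65% lower over all tested genes. The summed CPM of 15 Kupffer cell markers were 417, 760 and 782 in the KO libraries, against 261, 459 and 349 in the WT libraries, and 3 of 14 tested markers rose. The 12 lymphocyte markers summed to 36.5, 40.2 and 54.97 CPM in the KO libraries, against 24.4, 25.8 and 29.7 CPM in the WT libraries, with 1 tested and none called. The 11 stellate cell markers summed to 653 to 760 CPM in KO and 490 to 534 CPM in WT, and 2 of 8 tested markers rose. The 12 endothelial markers summed to 449 to 603 CPM in KO and 584 to 618 CPM in WT, the 8 cholangiocyte markers to 51.4 to 76.5 CPM in KO and 40.4 to 60.1 CPM in WT, and the 10 erythroid markers to 208 to 264 CPM in KO and 209 to 237 CPM in WT, with Hba-a1 and Hba-a2 at 0 throughout. Of tested markers, 1 of 12 endothelial markers rose and 2 fell, 0 of 4 cholangiocyte markers were called, and 1 of 3 erythroid markers rose. Of the acinar markers 1 was tested and rose, and Amy2a5 was at 0 in every library. The Kupffer cell and lymphocyte sums were highest in KO3 and the acinar sum in KO1. The part of these cells in the levels of Ccnd1, Mki67, Top2a or Mcm2 to Mcm6 was not tested.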

How the data were processed

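Liver RNA was sequenced in 6 libraries, 3 from Trim24 knockout and 3 from wild type mice, grouped by the titles in the labels. The authors deposited raw read counts per gene symbol, not normalized. Tools listed in the submitters' processing notes, with no roles, are HTSeq, TopHat 1.4.1 and edgeR, and the build listed is mm9. No source used here gives the strand setting. Reads in no gene (93.3% to 95.8%) and ambiguous reads entered neither library sizes nor tests.

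Genotypes were compared on these counts by quasi-likelihood in edgeR 4.0.16 (R 4.3.3), with TMM scaling, genotype as the only term, filterByExpr with a minimum count of 10 and Benjamini-Hochberg adjustment over the 9180 genes left, called at an adjusted p under 0.05. Log2 fold changes are KO over WT, and an SE is the size of the change divided by the root of its F value. Alternatives covered scaling, filter, threshold, DESeq2 1.42.0, limma-voom 3.58.1, the replicate number as a block and libraries left out. The fit was tested on simulated counts. Intervals are exact 95% intervals of summed counts, which cover counting error only. All members were named, with values by library for tested members and for untested ones with at least 10 counts in all, and of the other cycle genes the called ones and those with the highest means by role. Mad2l1, Ccnf, Ung, E2f8, E2f4, Rbl2, Oraov1 and Exosc9 were added after their values were seen. Members and lists were chosen with earlier results of these data known. Exon overlaps were taken from GENCODE M21 on GRCm38.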

Additional observations from a re-analysis of the deposited data

How the results depend on the processing

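No shared deviation by replicate number was seen, since deviations of same-numbered libraries correlated at r = -0.07, 0.08 and 0.03. KO1 and KO2 both correlated best with WT2, and KO3 with WT1. With 3 libraries a genotype, these values cannot decide whether the libraries were paired. With the replicate block, 3 members were again called higher, 545 genes were called in all, and 2 other cycle genes were called lower. Of 255 log2 fold changes of tested members under the alternatives, 225 kept direction and side of the threshold, 10 were lost calls of Mki67 and Top2a, and 20, of 8 genes that were never called, changed sign. With a library left out, these 8 ranged from -0.084 to 0.17 for Cdk4, -0.034 to 0.29 for Cdk6, -0.12 to 0.080 for Cdkn1b, -0.48 to 0.25 for Cdk2, -0.98 to 0.24 for Mcm7, -0.20 to 0.088 for Pcna, -0.21 to 0.33 for Rrm1 and -0.29 to 0.034 for Tyms. Of the other cycle genes, Mcm10 ranged from -0.56 to 0.34, Anapc1 from -0.093 to 0.086 and Anapc5 from -0.048 to 0.12. With library totals only, Cdkn1b was at 0.058, Cdk2 at 0.041, Pcna at 0.021 and Anapc1 at 0.066. With KO2 as the only KO library, Cdk4 was at -0.26, Cdkn1b at 0.070, Cdk2 at 0.016, Rbl2 at 0.065 and Anapc5 at -0.024. No direction is read from any of these genes. Calls over all genes, in either direction, numbered 526 of 9180 tested, and 882 of 9180 at an adjusted p under 0.10. They numbered 1085 of 16989 with no filter on low counts and 571 of 12840 with at least 1 CPM in 3 libraries. With a library left out they numbered 222 to 772. Members called higher numbered 4 with no filter, the addition being Ccne1, 1 to 3 with a library left out and 1, Ccnd1, with KO2 as the only KO library, a fit that assumes KO2 varies like the WT libraries. With no filter all 36 members were tested. Other cycle genes called higher numbered 8 of 116 tested with no filter and 6 of 95 with at least 1 CPM in 3 libraries. At an adjusted p under 0.10 they numbered 2 of 46. Those called lower numbered 0 with library totals only, 4 with no filter, 2 each with DESeq2, limma-voom and KO2 alone, 3 at an adjusted p under 0.10 and 0 to 2 with a library left out. The log2 ratio of the G1 sum was 0.44, against 0.10 without Ccnd1 and 0.11 over the 5 G1 members with no counted opposite-strand partner, a choice made after seeing the data. The log2 ratio of the S sum, -0.04, was above 0 with library totals only (0.05), without Tyms (0.22) and without KO1, KO2 or WT1, all smaller than the spread between libraries. The causes of these differences were not tested. Leaving out libraries or changing the filter also changes the number of libraries or of tested genes. The small number of reads in genes limits the 19 untested members, of which 10 had fewer than 10 counts in every library.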

Other observations

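Other mitotic genes too low for the main filter had more reads in the knockout livers, and were picked out after their values were seen. The 37 untested genes of the other G2/M list summed to 101, 71.6 and 141 CPM in the KO libraries. The WT libraries had 44.0, 52.9 and 39.2 CPM, a ratio of 2.30 with all libraries and 1.90 without KO3. Higher sums were not confined to mitotic genes. The 22 untested other S genes summed to 44.0, 50.5 and 65.4 CPM in KO, against 43.3, 26.5 and 31.5 CPM in WT. Their groups did not overlap, with a ratio of 1.58 with all libraries and 1.399 without KO3. The 13 untested other G1 genes overlapped between genotypes, with ratios of 1.37 and 1.14. Nek2, a centrosome kinase gene, had 8, 9 and 29 counts in the KO libraries, against 2, 3 and 1 counts in the WT libraries. Cenpf, a kinetochore gene, had 8, 4 and 26 counts in the KO libraries, against 1 count in each WT library. Ect2, a cytokinesis gene, had 8, 7 and 21 counts in the KO libraries, against 1, 0 and 3 counts in the WT libraries. When genes with 1 CPM or more in 3 libraries were tested, these genes passed in edgeR (adjusted p = 0.031 for Nek2 and Cenpf and 0.047 for Ect2), as did Ckap2 (adjusted p = 0.043) and Tpx2 (adjusted p = 0.05 after rounding). At this filter 571 of 12840 genes were called in either direction. All 3 KO libraries lay above all WT libraries for each of these 5 genes. Of all 51 genes of the other G2/M list, 11 lay so and 2 lay the other way. Under the main filter these shares were 12.4% and 12.6% of all tested genes. The 5 genes entered this test through their KO counts, a route closed to genes as low in KO as these are in WT, so no more is read from the calls.

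Of genes not called in the main test, Ccnf, the cyclin F gene, had 4.33, 4.34 and 11.5 CPM in the KO libraries, against 16.8, 17.2 and 15.4 CPM in the WT libraries, with an adjusted p of 0.076 in edgeR with all libraries and 0.01 without KO3. Ung, of the replication genes, differed in the other direction. It had 11.1, 7.60 and 7.65 CPM in the KO libraries, against 3.49, 2.65 and 4.16 CPM in the WT libraries. Its adjusted p in edgeR was 0.068 with all libraries and 0.11 without KO3. E2f8, an E2F repressor linked to the ploidy of hepatocytes in mouse, had 13.6, 16.3 and 28.5 CPM in the KO libraries, against 67.1, 32.4 and 25.5 CPM in the WT libraries, with KO3 above WT3 (adjusted p = 0.11). Rbl1, the p107 gene, had 6, 11 and 42 counts in the KO libraries, against 6, 3 and 6 counts in the WT libraries, so that KO3 was again the highest library.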
